A study of Homo sapiens with 30 samples.

Results

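The collagen genes are the 44 protein-coding RefSeq genes whose symbols consist of COL, a type number, A and a chain number, out of 20037 protein-coding genes on chromosomes 1 to 22, X and Y (RefSeq, GRCh38.p14, the assembly behind hg38). They were examined in wild-type neural progenitor cells derived from the human embryonic stem cell line H9 and grown as a monolayer in N2/B27/FGF medium. CUT&RUN, in which a nuclease tethered to an antibody cuts out the DNA next to its target protein, was done for RING1 and for RNF2 in 2 libraries each. The 4 peak lists come as 2 pairs of 1 RING1 and 1 RNF2 list, called set A and set B here, and the labels do not tie a set to a replicate number. All 30 libraries of the series come from this 1 line, and the edited RING1 and RNF2 genotypes and the H2AK119ub1 and IgG libraries were not analysed here.

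Collagens are the triple-helical proteins of the extracellular matrix. Fibrillar types build the fibrils of bone, skin and cartilage, type IV chains build the network of basement membranes, and FACIT collagens sit on the surface of fibrils. The neuroepithelium rests on a basement membrane rich in type IV collagen, while most fibrillar collagens are products of mesenchymal cells. RING1 and RNF2 are the catalytic subunits of Polycomb repressive complex 1, which places H2AK119ub1 and is best known at the CpG-rich promoters of silenced developmental genes. A peak shows where the antibody enriched DNA and says nothing of how strongly a gene is transcribed. No expression values were used, so the progenitor identity of the cells was not checked against marker genes.

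Type IV collagen genes lie head to head in pairs that share the DNA between their starts, so each pair was also counted as 1 promoter, which turns the 44 genes into 41 units. The sequences between the annotated gene ends of the 3 pairs are shown because both called pairs and the pair without a peak differ in their CG dinucleotides, which are in capitals. All are from RefSeq, GRCh38.p14, plus strand, and run from the end of the minus-strand gene at which it starts to the start of the plus-strand gene. For COL4A6 and COL4A5, whose ends lie 379 bp apart, the 250 bases next to COL4A5 are shown.
COL4A1 and COL4A2, chr13:110307158-110307283: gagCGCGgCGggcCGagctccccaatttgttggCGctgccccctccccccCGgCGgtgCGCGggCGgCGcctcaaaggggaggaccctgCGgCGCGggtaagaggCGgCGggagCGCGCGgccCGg
COL4A4 and COL4A3, chr2:227164489-227164623: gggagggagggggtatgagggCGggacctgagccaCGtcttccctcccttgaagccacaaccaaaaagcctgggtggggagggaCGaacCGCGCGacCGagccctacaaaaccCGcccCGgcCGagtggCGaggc
COL4A6 and COL4A5, chrX:108439588-108439837: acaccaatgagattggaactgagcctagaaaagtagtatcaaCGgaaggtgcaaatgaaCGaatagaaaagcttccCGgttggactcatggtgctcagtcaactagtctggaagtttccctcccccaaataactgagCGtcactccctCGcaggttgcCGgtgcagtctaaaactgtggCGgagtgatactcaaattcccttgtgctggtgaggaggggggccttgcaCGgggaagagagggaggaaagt
The stretch of COL4A1 and COL4A2 held 20 CG in 126 bases, that of COL4A4 and COL4A3 held 11 in 135 bases, and that of COL4A6 and COL4A5 held 8 in 250 bases. The start that RefSeq's promoter table lists for COL4A4 lies 283 bp inside the gene end, so the stretch shown for that pair stops short of it, and the 300-base window at that start held 29 CG.

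A gene was called for a list when a peak of that list lay within 2 kb of either annotated end of the gene. RING1 was called at 20 collagen genes in set A (45.5%), where 45.6% of all protein-coding genes were called. RNF2 of set A was called at 25 (56.8%, against 56.1% of all genes) and RNF2 of set B at 12 (27.3%, against 21.7%). RING1 of set B was called at none of the 44, in a list of 659 peaks that met 1.32% of all genes, so none had RING1 in both sets, where 1.31% of all genes did. Both sets called RNF2 at 11 collagen genes (25.0%, against 20.8% of all genes), and with each head-to-head pair counted once the counts were 18, 0, 23 and 12 of 41 for RING1 of sets A and B and RNF2 of sets A and B. The shares of collagen genes thus lay near those of all genes, with the widest gap in RNF2 of set B. The lists hold called peaks only, with no reads per library, so no test across libraries was possible and read depth is unknown; a missing peak does not show that the protein was absent.

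**Figure D1:**
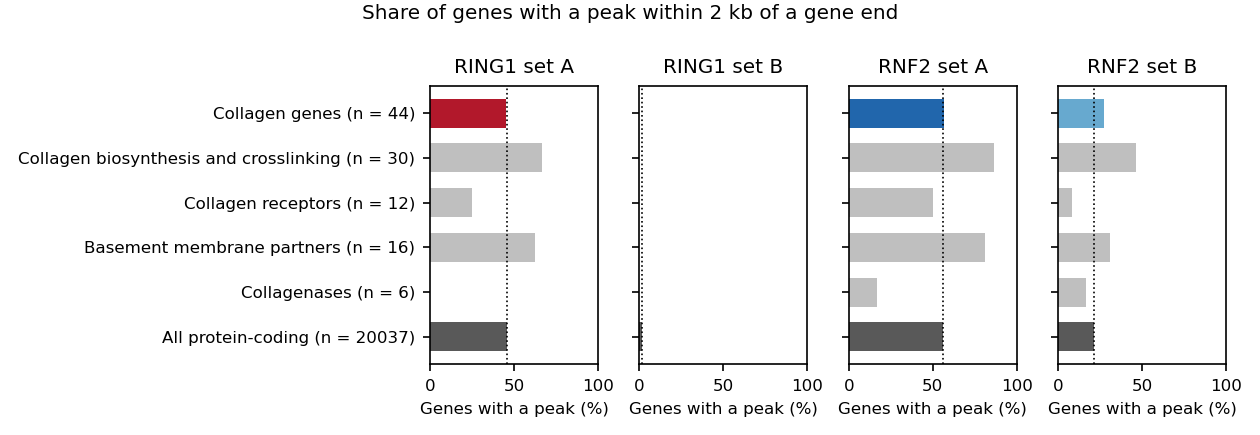
Share of genes with a peak within 2 kb of a gene end (x axis, percent) in each of the 4 lists, for the 44 collagen genes (coloured), 4 lists of related matrix genes (light grey) and all 20037 protein-coding genes (dark grey, dotted line). The collagen bar ends close to the dotted line for RING1 and RNF2 of set A (45.5% and 56.8%) and is empty for RING1 of set B.

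In set A, 19 collagen genes carried both proteins (43.2%, against 43.0% of all genes), which is all but 1 of the 20 with RING1 and all but 6 of the 25 with RNF2. The gene with RING1 and no RNF2 was COL8A2, a short-chain collagen of the corneal endothelium (fold 3.34; 2.27%, against 2.62% of all genes). The 6 with RNF2 and no RING1 were COL8A1, COL11A1, COL15A1, COL22A1, COL23A1 and COL27A1 (13.6%, against 13.1% of all genes). No collagen gene was called in all 4 lists, where 1.28% of all genes were. Of the 44 genes, 8 were called in 3 lists, 14 in 2, 5 in 1 and 17 in none, and 27 were in at least 1 list (61.4%, against 59.4% of all genes).

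**Figure D2:**
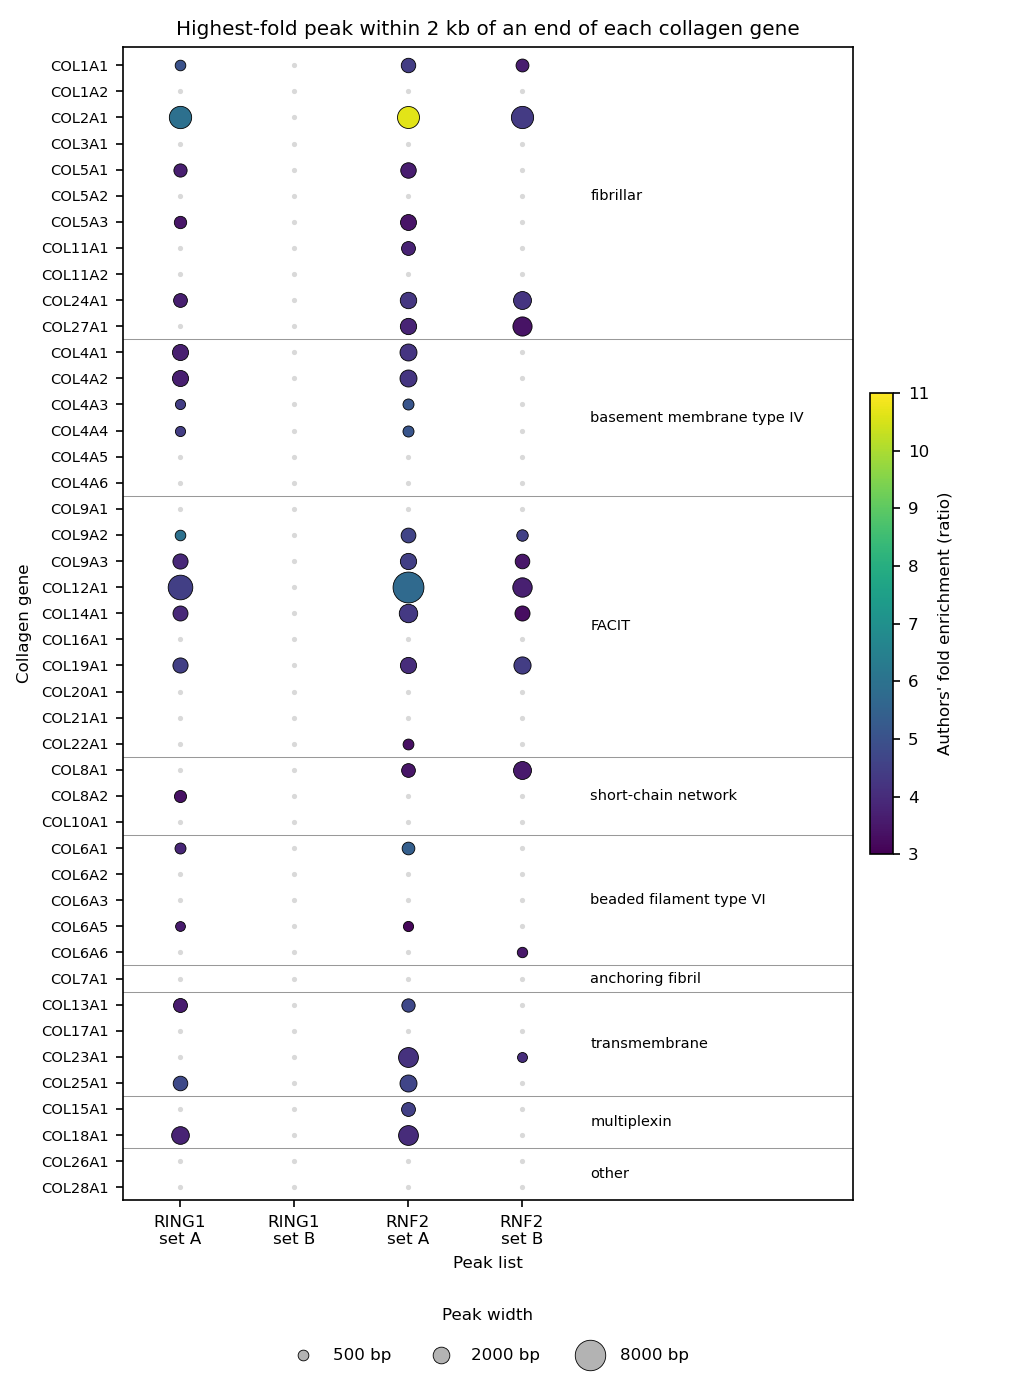
Each row is 1 of the 44 collagen genes, grouped by class, and each column 1 peak list. A disc marks the peak of highest fold within 2 kb of a gene end, coloured by the authors' fold enrichment (ratio) and sized by peak width, and a grey dot marks no peak. COL2A1 in the RNF2 set A column has the highest fold (10.6), COL12A1 the widest peak (8218 bp), and the RING1 set B column holds no disc.

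The median fold at collagen genes lay below that of all called genes in each list that called any. Fold here is the authors' enrichment of a peak over background, read only within its own list. Over the called collagen genes the median fold was 3.87 for RING1 of set A, 4.26 for RNF2 of set A and 3.67 for RNF2 of set B, and over all called genes of the same lists it was 4.19, 4.33 and 3.85. Their widths lay on the other side, with medians of 1220, 1782 and 1848.5 bp at collagen genes against 802, 1156 and 897 bp at all called genes. Peaks wider than the median of all called genes stood at 13 of 20, 19 of 25 and 9 of 12 collagen genes, counting both genes of a pair. Peaks with a fold above the median of all called genes stood at 8, 12 and 5 of the same genes. At a −log10 q of at least 5, RNF2 of set A was left at 2 collagen genes, COL2A1 and COL12A1 (4.55%, against 15.7% of all genes), and RING1 of set A at 2, COL2A1 and COL9A2 (4.55%, against 7.97%).

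The fibrillar class had RING1 of set A at 5 of its 11 genes, RNF2 of set A at 7 and RNF2 of set B at 4, where 45.6%, 56.1% and 21.7% of all genes were called. COL2A1, the cartilage and notochord collagen (chr12:47972967-48006212), stood out by its fold in RNF2 of set A. Its RNF2 peak had a fold of 10.6 over 3892 bp in set A, where 98.9% of the peaks of that list had a lower fold. In set B the RNF2 peak had a fold of 4.38 over 3997 bp. There 82.2% of peaks had a lower fold, and COL9A2 and COL19A1 had higher ones. The RING1 peak of set A had a fold of 5.93 over 4027 bp, below the 5.95 of COL9A2. All 3 peaks lay inside the gene and began 1169 to 1321 bp from its upper end, so none covered that end. The set B RING1 list held a peak of 397 bp (fold 4.52) inside the same stretch, 2632 bp from the upper end and so outside the window. COL2A1 was therefore reached by all 4 lists, though by 3 under the rule.

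COL1A1 and COL24A1 were the other fibrillar genes called in 3 lists. COL1A1, the main chain of bone and skin collagen, had RING1 at fold 5.03 (482 bp) in set A, RNF2 at 4.43 (1373 bp) in set A and RNF2 at 3.64 (977 bp) in set B. Its partner chain COL1A2 on another chromosome had no peak in any list, and neither did COL3A1, COL5A2 or COL11A2. COL24A1 had RING1 at 3.66 (1197 bp) and RNF2 at 4.26 (1929 bp) in set A, and RNF2 at 4.22 (2397 bp) in set B. COL27A1, a cartilage collagen, had RNF2 alone, at 3.79 (1888 bp) in set A and at 3.38 (2830 bp) in the other set. COL5A1 and COL5A3, chains of the type V collagen that takes part in fibril assembly, were called in set A only. COL5A1 had RING1 at 3.66 (1052 bp) and RNF2 at 3.64 (1655 bp), and COL5A3 had RING1 at 3.47 (849 bp) and RNF2 at 3.41 (1782 bp). COL11A1 had RNF2 of set A alone.

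The type IV genes were called in set A only, at 2 of the 3 head-to-head pairs. One RING1 peak of fold 3.68 (1827 bp) and one RNF2 peak of fold 4.24 (2100 bp) covered the starts of both COL4A1 and COL4A2, the ubiquitous basement membrane chains. At COL4A3 and COL4A4, chains of the kidney and inner ear basement membrane, RING1 had a peak of fold 4.41 (400 bp). RNF2 had a peak of fold 4.24 (1865 bp) over the starts and a second of fold 5.12 (565 bp), 1941 bp from the start of COL4A3. COL4A5 and COL4A6, the X-linked pair, had no peak within 2 kb in any list, and the nearest peak to an end of either, a RING1 peak of set A, lay inside COL4A6 at 22198 bp from its end. Set B called RNF2 at none of the 6 type IV genes, where it called 21.7% of all genes.

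**Figure D3:**
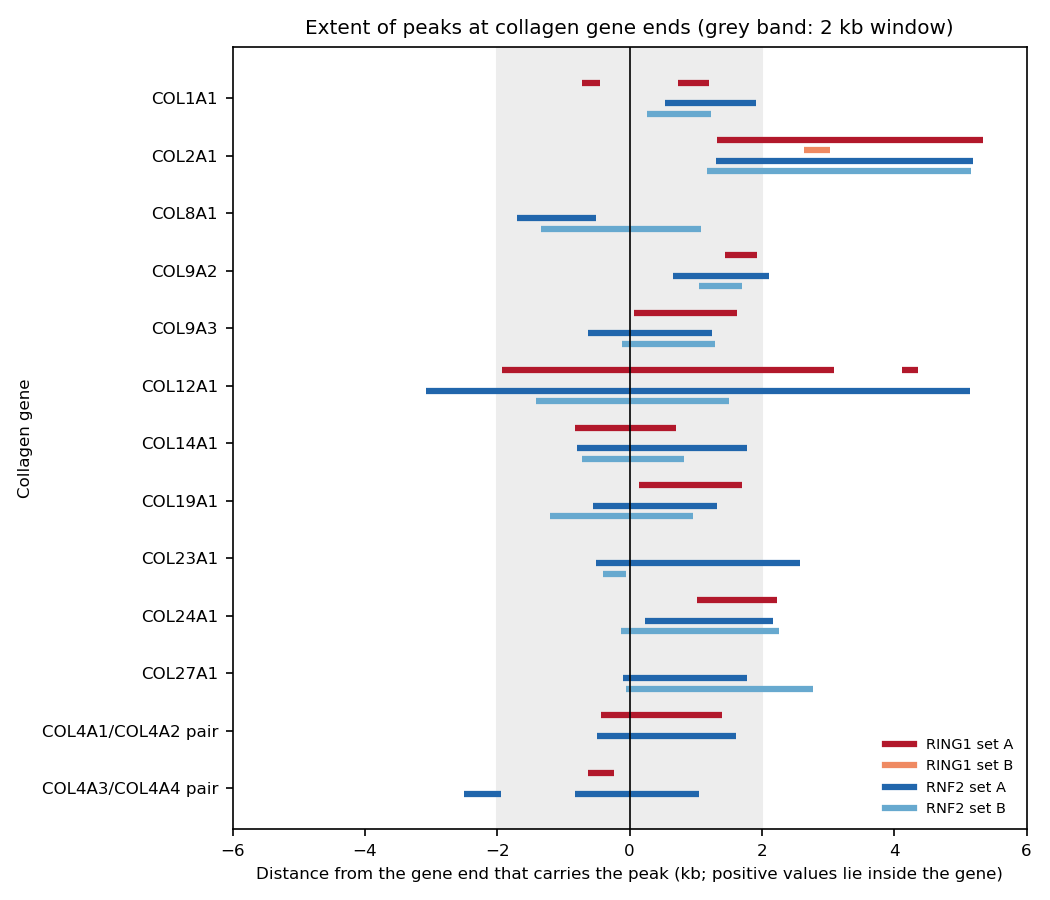
Extent of each peak (horizontal bars, coloured by list) around the gene end that carries it, for the 11 collagen genes with RNF2 in both sets and the 2 called type IV pairs, drawn from COL4A2 and COL4A3. The x axis is the distance from that end in kb, with positive values inside the gene; the COL12A1 bar of RNF2 set A is the longest (8218 bp), and the COL2A1 bars start inside the gene at over 1 kb from its end.

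RNF2 was called in both sets at 5 of the 10 FACIT genes, namely COL9A2, COL9A3, COL12A1, COL14A1 and COL19A1, where 20.8% of all genes were so called, and the class was not tested against them. COL12A1, a FACIT collagen of tendon and ligament (chr6:75084326-75206053), had the widest collagen peaks of both set A lists, while COL2A1 had that of RNF2 in set B. Its start lay under RNF2 peaks of 8218 bp (fold 5.75) in set A and 2910 bp (fold 3.70) in set B, and under a RING1 peak of 5026 bp (fold 4.49) in set A. In RNF2 of set A, 97.7% of peaks were narrower. Both set A lists also had a small peak at its 3′ end, with a fold of 3.47 for RING1 and 3.29 for RNF2. COL12A1 was the one collagen gene with such a peak among the 14 called genes of known strand for RING1 of set A and the 17 for RNF2 of set A, where 18.4% and 17.7% of all called genes had one.

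COL9A2 and COL9A3 encode chains of cartilage type IX collagen. COL9A2 had RING1 at 5.95 (482 bp) and RNF2 at 4.60 (1455 bp) in set A and RNF2 at 4.55 (658 bp) in set B, the highest collagen fold of that list. COL9A3 had RING1 at 3.89 (1560 bp) and RNF2 at 4.49 (1878 bp) in set A and RNF2 at 3.47 (1411 bp) in set B. Its RNF2 peak of set A also lay within 2 kb of an end of the neighbouring gene OGFR, the one collagen peak shared in this way with another protein-coding gene outside the family. COL19A1 had RING1 at 4.49 (1559 bp) and RNF2 at 4.01 (1865 bp) in set A and RNF2 at 4.42 (2164 bp) in set B. COL14A1 had RING1 at 3.91 (1518 bp) and RNF2 at 4.33 (2577 bp) in set A, and RNF2 at 3.30 (1533 bp) in set B. COL22A1 had RNF2 of set A alone, and COL9A1, COL16A1, COL20A1 and COL21A1 had no peak at an end.

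COL9A1, the remaining chain of type IX collagen, had no peak at its ends but carried peaks of 3 lists at an internal start. RefSeq lists 2 starts, 1 at the upper end of the gene and 1 at position 70283197 on chromosome 6, 19887 bp downstream. RING1 of set A (fold 5.81, 808 bp) and RNF2 of set A (fold 6.57, 1136 bp) covered the internal start, and RNF2 of set B (fold 3.99, 772 bp) ended 401 bp from it. Among the 32 collagen genes with a listed start, taking listed starts in place of gene ends gained COL9A1 alone in each of these 3 lists and lost none. The 250 bases upstream of each start, in the direction of transcription, are shown because they differ in CG content, again in capitals.
COL9A1 internal start, chr6:70283198-70283447, minus strand: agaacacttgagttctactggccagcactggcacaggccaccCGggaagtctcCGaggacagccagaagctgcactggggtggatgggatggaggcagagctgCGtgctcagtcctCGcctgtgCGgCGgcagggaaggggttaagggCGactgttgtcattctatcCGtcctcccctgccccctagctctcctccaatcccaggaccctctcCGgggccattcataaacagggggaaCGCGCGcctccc
COL9A1 start at the gene end, chr6:70303085-70303334, minus strand: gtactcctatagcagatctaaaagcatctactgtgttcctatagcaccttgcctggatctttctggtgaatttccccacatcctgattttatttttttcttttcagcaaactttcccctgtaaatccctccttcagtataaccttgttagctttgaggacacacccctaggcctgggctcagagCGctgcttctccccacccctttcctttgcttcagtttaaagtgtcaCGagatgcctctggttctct
The internal start had 12 CG in these bases and the start at the gene end had 2.

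Among the other classes, RNF2 was called in both sets at COL8A1 and COL23A1. COL8A1, a short-chain collagen of vessel walls and cornea, had RNF2 at 3.45 (1186 bp) in set A and 3.55 (2409 bp) in set B. COL23A1, a transmembrane collagen, had RNF2 at 4.15 (3075 bp) in set A and 4.01 (354 bp) in set B. Of the transmembrane class, COL25A1, which is produced by neurons, had RING1 at 4.78 (1403 bp) and RNF2 at 4.65 (2109 bp), and COL13A1 had RING1 at 3.61 (1243 bp) and RNF2 at 4.74 (1073 bp), all in set A. COL18A1, the source of endostatin and a basement membrane component, had RING1 at 3.75 (2323 bp) and RNF2 at 3.99 (3056 bp) in set A, and its relative COL15A1 had RNF2 of set A alone. Of the type VI genes, which build beaded filaments, COL6A1 had RING1 at 3.85 (557 bp) and RNF2 at 5.39 (929 bp) in set A and COL6A5 had RING1 at 3.58 (329 bp) and RNF2 at 3.13 (403 bp). COL6A6 had RNF2 of set B alone. COL6A2, COL6A3, COL7A1, COL10A1, COL17A1, COL26A1 and COL28A1 had no peak at an end in any list.

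Where the strand was known, every called collagen gene had a peak at its 5′ end, as did most called genes of the genome. Promoter windows of RefSeq, running from 250 bases before to 50 after a start, matched 32 of the 44 genes and not COL1A1, COL1A2, COL2A1, COL3A1, COL5A2, COL6A1, COL6A5, COL8A1, COL9A3, COL14A1, COL20A1 or COL22A1. Among the matched genes RING1 of set A was at the 5′ end of all 14 called collagen genes and of 95.1% of all called genes, RNF2 of set A at that of all 17 and of 96.6%, and RNF2 of set B at that of all 7 and of 91.7%. A peak covered the gene end itself at 9 of the 20 called collagen genes for RING1 of set A (68.4% of all called genes), 19 of 25 for RNF2 of set A (79.2%) and 7 of 12 for RNF2 of set B (60.3%). The called gene whose nearest peak lay farthest from an end was COL9A2 for RING1 of set A (1445 bp, fold 5.95) and COL2A1 for RNF2 of set A and of set B (1304 bp, fold 10.6, and 1169 bp, fold 4.38). The closest uncalled genes were COL23A1 (4278 bp, fold 3.78), COL7A1 (5734 bp, fold 6.30) and COL6A1 (7696 bp, fold 3.90) in the same lists, and COL2A1 (2632 bp) for RING1 of set B. At COL4A3 and COL4A4 the RNF2 peak of highest fold in set A (5.12) lay near the window edge, 1941 and 1805 bp from their ends, and the peak over those ends had a fold of 4.24.

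Every matched collagen gene with a peak at an end held at least 11 CG dinucleotides at its start. CG, a motif that reads the same on both strands, was counted in the 300-base window at the listed start farthest upstream. Both genes of each head-to-head type IV pair were counted here. The windows of a pair overlap and the same peaks call both its genes, so these counts are of genes and not of separate promoters. At least 1 CG was found in all 32 collagen windows and in 98.1% of the windows of 15842 protein-coding genes, and at least 10 in 24 collagen windows (75.0%) and in 72.9% of all. The 19 matched collagen genes called in at least 1 list held 11 to 46 CG (median 29), and the 13 called in none held 1 to 36 (median 7), so the groups overlap. Among windows with at least 10 CG, RNF2 of set A was called at 17 of 24 collagen genes (70.8%) and at 72.4% of all genes. RING1 of set A was called at 14 of the 24 (58.3%) and at 59.1% of all genes, and RNF2 of set B at 7 (29.2%) and at 27.9%. Of the 8 collagen genes under 10 CG none was called at an end in any list, where RNF2 of set A was called at 18.9%, RING1 of set A at 14.6% and RNF2 of set B at 6.79% of all such genes. This depends on the start used. COL9A1 and COL21A1, both among the 8, have another listed start with 16 and 14 CG, and that of COL9A1 carried the peaks described above. The 5 genes with at least 10 CG and no peak were COL6A2, COL7A1, COL11A2, COL16A1 and COL26A1. The count of 10 was chosen with the calls known, and what CG content contributes was not tested.

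**Figure D4:**
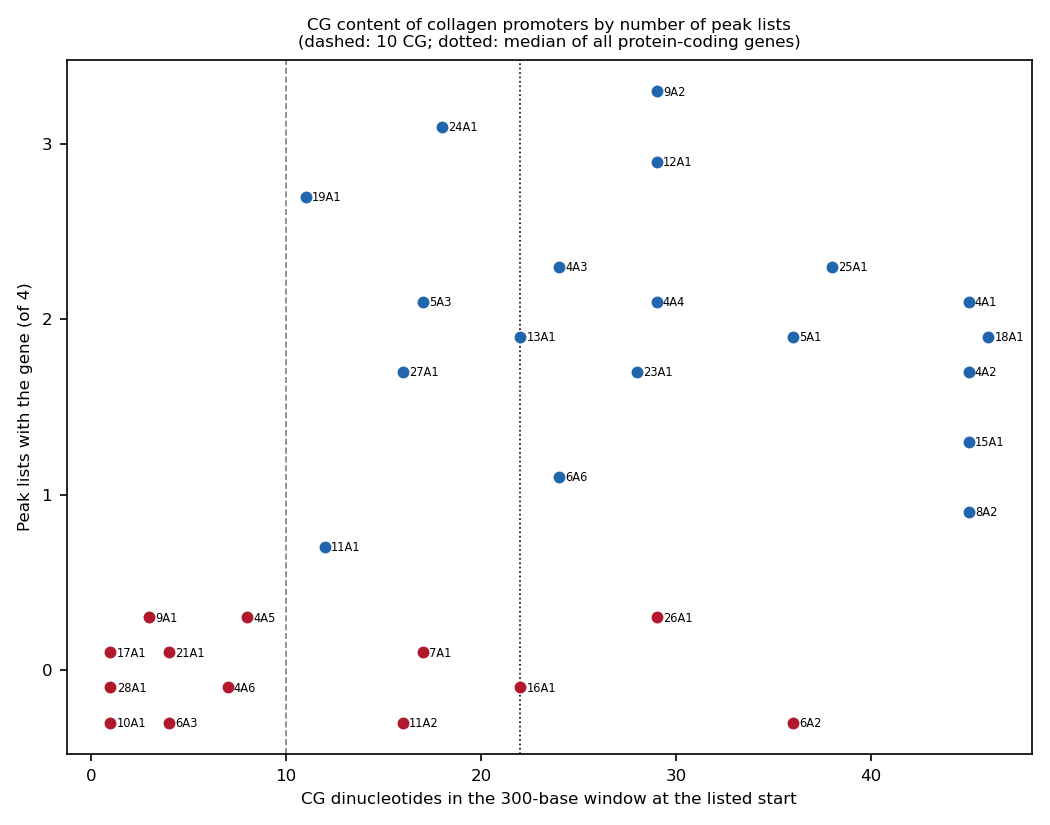
Each point is 1 of the 32 collagen genes with a listed start (labelled without COL); the x axis is the number of CG dinucleotides in its 300-base window and the y axis the number of the 4 peak lists that call it, with points of 1 level moved up or down for legibility only. All 19 called genes (blue) lie right of the dashed line at 10 CG, and 8 of the 13 uncalled genes (red) lie left of it.

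As examples, the 250 bases upstream of 3 starts are shown. They are those of COL12A1 and COL19A1, both called in 3 lists, and of COL10A1, the collagen of hypertrophic cartilage, called in none. The COL10A1 start is the farthest upstream of those listed, and the others held 2 and 3 CG in their windows. Its window held 1 CG, the lowest count of the collagen windows, shared with COL17A1 and COL28A1. The window of COL6A2, also called in none, held 36. CG is in capitals.
COL12A1, chr6:75206054-75206303, minus strand: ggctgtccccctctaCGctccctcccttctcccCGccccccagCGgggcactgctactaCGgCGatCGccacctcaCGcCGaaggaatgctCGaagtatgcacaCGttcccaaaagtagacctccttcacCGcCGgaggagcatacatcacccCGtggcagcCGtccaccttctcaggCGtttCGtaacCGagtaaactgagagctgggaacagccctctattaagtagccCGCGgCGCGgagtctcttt
COL19A1, chr6:69866306-69866555, plus strand: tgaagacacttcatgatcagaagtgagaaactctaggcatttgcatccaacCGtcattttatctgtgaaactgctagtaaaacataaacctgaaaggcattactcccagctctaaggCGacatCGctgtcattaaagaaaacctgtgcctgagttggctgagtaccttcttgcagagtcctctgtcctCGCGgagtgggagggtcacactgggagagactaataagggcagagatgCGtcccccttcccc
COL10A1, chr6:116217145-116217394, minus strand: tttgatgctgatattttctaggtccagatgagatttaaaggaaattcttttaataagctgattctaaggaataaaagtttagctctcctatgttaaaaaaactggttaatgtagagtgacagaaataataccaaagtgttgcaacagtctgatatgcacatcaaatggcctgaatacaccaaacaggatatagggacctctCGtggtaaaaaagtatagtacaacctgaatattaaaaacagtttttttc
These stretches held 21, 6 and 1 CG. COL19A1 was thus called in as many lists as COL12A1 with fewer CG.

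Genes that make, bind or degrade collagen were set beside the collagen genes. Those named were picked for the highest RNF2 folds of their group, ranked by the smaller fold of both sets, so they are not typical members. Of all genes, RING1 of set A was called at 45.6%, RNF2 of set A at 56.1%, RNF2 of set B at 21.7% and RNF2 of both sets at 20.8%. The 30 genes of collagen biosynthesis and crosslinking had RING1 of set A at 20 (66.7%), RNF2 of set A at 26 (86.7%) and RNF2 of set B at 14 (46.7%). ADAMTS2, which trims procollagen, had RNF2 folds of 5.01 (set A) and 4.83 (set B), and LOXL3, a lysyl oxidase that crosslinks collagen, had 7.60 and 5.40. Of 16 basement membrane partners RING1 of set A was at 10 (62.5%), RNF2 of set A at 13 (81.25%) and RNF2 of set B at 5 (31.25%). Among these 5 were LAMA3 (RNF2 4.86 and 4.0) and AGRN (RNF2 4.99 and 3.86). Of 12 collagen receptors RING1 of set A was at 3, RNF2 of set A at 6 and RNF2 of set B at 1, with none in both sets. Of 6 collagenases RNF2 was at 1 in each set (16.7%), MMP2 (3.81 and 4.63), and RING1 at none. RING1 of set B was at none of these genes, where it was called at 1.32% of all genes. No group of matrix genes was tested against the shares of all genes.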

How the data were processed

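Of the 30 libraries, the 4 wild-type RING1 and RNF2 libraries are represented by deposited peak lists in broad peak format. Per the submitters' processing notes, the build was hg38 and the tools included MACS2 2.2.9.1 and BWA 0.7.17, whose roles and options are not stated there, nor is the control behind each list. The authors' deposited fold enrichment is a ratio over background. The deposited −log10 q-value was used for stricter lists. The deposited consolidated file holds 3 columns of coordinates and no measurement.

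Peaks outside chromosomes 1 to 22, X and Y were dropped, and overlap meant at least 1 bp. A gene with several peaks was given that of highest fold. Gene ends and promoter windows came from RefSeq (GRCh38.p14). Every collagen gene called in at least 2 lists is named with its values. The members and lists were chosen with earlier results of these data known, and no test was run. Tried alternatives were windows of 1 kb and 5 kb, gene bodies extended by 2 kb, 5′ ends only, −log10 q of at least 2 or 5, lists of equal length, pairs as 1 promoter, and each set left out. In simulated data over 20037 genes, all 200 planted genes were called, 52 neighbouring genes were called through the same peaks, and 500 decoy peaks called none. Planted peaks were placed within the window and decoys outside it, so this checked the overlap step only and not how well peaks find binding. Python 3.11.15, numpy 2.4.6, pandas 2.3.3 and matplotlib 3.10.9 were used.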

Additional observations from a re-analysis of the deposited data

How the results depend on the processing

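Window size changed most counts less than list strictness did, but it changed which genes were called. With 1 kb windows COL2A1 was lost from each list that had called it. COL9A2 was lost from RING1 of set A and RNF2 of set B, and COL24A1 from RING1 of set A. RNF2 of both sets was then at 9 collagen genes (20.5%, against 19.4% of all genes). At a −log10 q of at least 2, RING1 of set A was at 11 collagen genes (25.0%, against 33.6% of all genes) and RNF2 of set A at 20 (45.5%, against 46.9%). RNF2 of set B was at 6 (13.6%, against 13.3%) and RNF2 of both sets at 6 (13.6%, against 12.6%). At a −log10 q of at least 5, RING1 and RNF2 of set A were at 2 each (7.97% and 15.7% of all genes), and RNF2 of set B and of both sets at 0 (2.56% and 2.41%). With lists of equal length, 659 peaks by lowest q, RING1 of set A was at 0 (3.70% of all genes), RNF2 of set A at 1 (3.91%), and RNF2 of set B and of both sets at 0 (3.55% and 2.20%). With 5 kb windows, and likewise with whole genes plus 2 kb on each side, RING1 of set B and RING1 of both sets were at 1, COL2A1 (1.59% and 1.58% of all genes with 5 kb, 1.58% and 1.57% with whole genes). With 5′ ends only, for which 32 genes have a listed start, RNF2 of both sets was at 7 (21.9%, against 20.6% of all genes with one). Leaving out 1 set gave 12 (without set A) to 25 (without set B) for RNF2 and 0 to 20 for RING1, so the counts in both sets (11 and 0) lie near those of set B alone. Of the values under the alternatives, 34 stayed within 1.5 times the main count and 18 did not. The 34 include the 20 for RNF2 of set A. They also include RING1 counts of 0 that stayed 0, which say little of stability, and recounts with pairs as 1 promoter. Read depth is unknown. No paired analysis was possible because none of these counts comes from a test; the report sets the RING1 and RNF2 lists of set A side by side.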

Other observations

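Peaks inside collagen genes, more than 2 kb from either end, were met at 7 genes for RING1 of set A (15.9%, against 10.6% of all genes), 1 for RING1 of set B (2.27%, against 0.554%), 4 for RNF2 of set A (9.09%, against 12.6%) and 4 for RNF2 of set B (9.09%, against 5.36%). Collagen genes had a median length of 144.7 kb and all genes of 24.1 kb, and the part of gene length was not tested. Leaving aside COL9A1 and COL2A1, their folds ran from 3.23 at COL15A1 to 3.95 at COL12A1. COL13A1 had an RNF2 peak of set B with a fold of 3.44 (564 bp) lying 64785 bp from its nearest end, while its start carried RNF2 of set A and not of set B. COL28A1 had an RNF2 peak of set B (fold 3.47, 381 bp) and COL4A6 a RING1 peak of set A (fold 3.54, 1038 bp). COL2A1 had a second inner site, met by RING1 (fold 3.88, 325 bp) and RNF2 (fold 3.39, 494 bp) of set A.

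The authors' consolidated file holds 4255 regions, of which 100% met an RNF2 peak of set A, 99.6% one of set B, 90.5% a RING1 peak of set A and 7.19% one of RING1 set B. Regions lay within 2 kb of an end of 11 collagen genes (25.0%, against 21.0% of all genes), which are the 11 with RNF2 in both sets. Since nearly all regions met RNF2 peaks of both sets, this match is not separate evidence. A region of 1260 bp also covered the internal start of COL9A1.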
